A study of Mus musculus with 2 samples.

Results

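The sites described here are 398 genome positions that 4 or more tools listed as N6-methyladenosine (m6A) both in wild-type (WT) and in Mettl3 knockout (KO) mouse embryonic stem cells. They were chosen from the lists themselves: a position with the same chromosome, start and strand had to stand in the WT list and in the KO list of at least 4 of 7 tools, namely Epinano, ELIGOS, m6Anet, MINES, Nanom6A, Tombo and xPore. The 17 deposited lists held 160430 positions in all, so the 398 sites, called repeated sites here, make up 0.248% of them. They lie in 360 genes. Poly(A) RNA of mESCs of strain 129, WT or with exons 5 to 7 of both Mettl3 alleles exchanged for puromycin and hygromycin resistance genes, was read as native RNA by nanopore direct RNA sequencing (DRS). The KO cells came from colonies picked under both drugs, a selection that the WT cells are not said to have had. No other treatment is named for either group. Each condition had 1 library without replicates, and the lists hold bare positions, with neither read numbers nor modification rates. No test across samples was therefore possible, the depth behind each site is unknown, and all intervals below are 95% Wilson or Newcombe intervals that cover counting error over sites only.

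m6A is the most common internal mark of mammalian mRNA. It is written by a complex in which METTL3 is the catalytic subunit and METTL14 binds the RNA, mostly within RRACH, where R is A or G and H is A, C or T in DNA letters. Marked adenosines gather near stop codons and in long internal exons and are sparse close to splice junctions, and proteins of the YTH family bind them and speed the decay of the transcript, which in embryonic stem cells limits the transcripts of pluripotency genes. DRS tools look for m6A in the ionic current (Tombo, MINES, Nanom6A, m6Anet, xPore) or in basecalling errors (ELIGOS, Epinano). They are not independent of each other: MINES starts from the values of Tombo, Nanom6A uses the same re-squiggled signal, m6Anet and xPore share the Nanopolish event alignment, xPore by design models WT and KO together, and MINES lists almost only the 5-mers GGACT and GGACA together with GGACC and with AGACT.

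As a check of the labels, no KO list held a position in the replaced exons 5 to 7 of Mettl3, while 2 positions there stood in WT or comparison lists. None of the repeated sites lay in Mettl3. Of 10 marker genes of embryonic stem cells, 9 had listed positions in WT and 9 in KO (235 and 185 positions), and Lin28a had 0 in both. Of 11 markers of fibroblasts, endoderm, mesoderm and neural cells, 2 had positions in each library (15 in WT and 4 in KO). They were Thy1 and Sox17 in WT and Col1a1 and Thy1 in KO, and the part of such cells in the results was not tested.

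The sequences below are shown for the bases that follow the motif, where, outside the 5-mer, the repeated sites stood furthest from all listed positions. Each is 29 bases of the GRCm38 (mm10) plus or minus strand, 5′ to 3′, with the adenosine in the middle. The 5-mer is in capitals, and so are G at the third and C at the fifth base after the adenosine wherever both are present. First come sites that 5 or 6 tools repeated and that read GGACAG followed by any base and C (GGACAGNC).
Tgif1, chr17:70846336-70846364, minus strand, coding sequence: tgaagacagcatGGACAGtCccctggacc
Pmm1, chr15:81951968-81951996, minus strand, coding sequence: gcgctactgcctGGACAGcCtggatgaag
Set, chr2:30072368-30072396, plus strand, 3′ UTR: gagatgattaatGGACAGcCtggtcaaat
Ubqln4, chr3:88569612-88569640, plus strand, 3′ UTR: gccgtaggtgggGGACAGtCccagacagt
Dkc1, chrX:75109475-75109503, plus strand, 3′ UTR: gagtgagttccaGGACAGtCcaggctata
The same G and C followed GGACT at another group of sites that 5 tools repeated.
Thoc7, chr14:13949241-13949269, minus strand, 3′ UTR: taagccatagatGGACTGaCcgtcgccat
Iqgap1, chr7:80711643-80711671, minus strand, 3′ UTR: tcccaagaatttGGACTGgCcgtcagact
Slc12a7, chr13:73815495-73815523, plus strand, 3′ UTR: taagcacactgaGGACTGtCcaccctcac
0610010K14Rik, chr11:70235324-70235352, minus strand, 3′ UTR: gactctaagcaaGGACTGcCtgagagagg
Plekhj1, chr10:80796402-80796430, minus strand, across the stop codon: gttaaatgtgttGGACTGaCcctctctgg
The other sites repeated by 6 tools lacked the G, the C or both.
Senp3, chr11:69680804-69680832, minus strand, coding sequence: agactatacaggGGACCgggtcttggggg
Tmed10, chr12:85343477-85343505, minus strand, coding sequence: ttctgcctcattGGACTagccacctggca
Ppp1cc, chr5:122168992-122169020, plus strand, coding sequence: tttgtttctcggGGACTatgtggacaggg
Ppp4c, chr7:126786041-126786069, minus strand, 3′ UTR: gccccagggtgcGGACTtgctctggagag

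Among the repeated sites, the base right after the 5-mer was G in 234 of 398 (58.8%, interval 53.9% to 63.5%), against 32.0% of all listed positions. The fifth base after the adenosine was C in 197 (49.5%, 44.6% to 54.4%), against 24.0%. Outside the 5-mer, these were the widest gaps between repeated sites and all listed positions at any of the 10 bases on either side, at 26.8 and 25.5 percentage points. T at the third base was the reverse, at 10.6% of the repeated sites and 24.6% of all positions. The sites were then set beside 1772 positions that met the same minimum in WT, being listed there by at least 4 of the 7 tools, but stood in no KO list, called WT-supported sites here. Their median number of WT tools was 5, against 4 for the repeated sites. There G stood at the third base in 23.8% and C at the fifth in 17.5%, both below the level of all listed positions, and A stood at the fourth base before the adenosine in 43.7%, against 19.6% of the repeated sites.

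**Figure D1:**
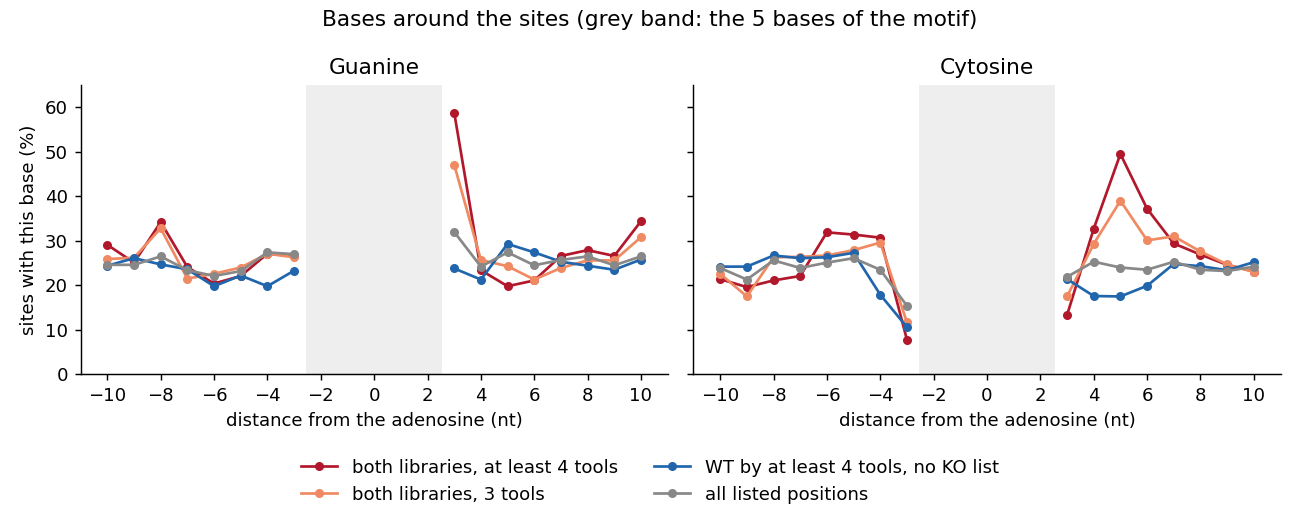
Share of sites (y axis, percent) with guanine (left) or cytosine (right) at each distance from the adenosine (x axis, nt). Repeated sites peak at 58.8% guanine 3 nt after the adenosine and at 49.5% cytosine 5 nt after it, positions repeated by 3 tools reach 47.1% and 39.0%, and WT-supported sites without a KO list lie at 23.8% and 17.5%.

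Both bases together were found at 142 repeated sites (35.7%, interval 31.1% to 40.5%), 468 of 2180 positions repeated by 3 tools (21.5%, 19.8% to 23.2%), 12868 of all 160430 positions (8.02%) and 69 of the 1772 WT-supported sites (3.89%, 3.09% to 4.90%). The repeated sites exceeded the WT-supported sites by 31.8 points (27.1 to 36.7). The share depended on how the tools were counted. It was 24.4% of 156 sites when MINES was left out. It was 20.5% of 370 sites when tools with a shared input counted as 1 vote and at least 3 of 4 votes were required. The latter setting changed votes and threshold together. Both bases were found at 62 of 172 repeated sites in coding sequence (36%, 29.2% to 43.5%) and at 78 of 210 in 3′ UTRs (37.1%, 30.9% to 43.9%). The share grew with the number of tools that repeated a position, from 6.48% at 0 tools through 8.28% at 1 and 14.5% at 2 to 36.3% of the 355 positions at 4. At 5 tools it was 31.6% of 38 sites (19.1% to 47.5%) and at 6 tools 1 of 5 sites, values whose intervals overlap that of 4 tools.

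**Figure D2:**
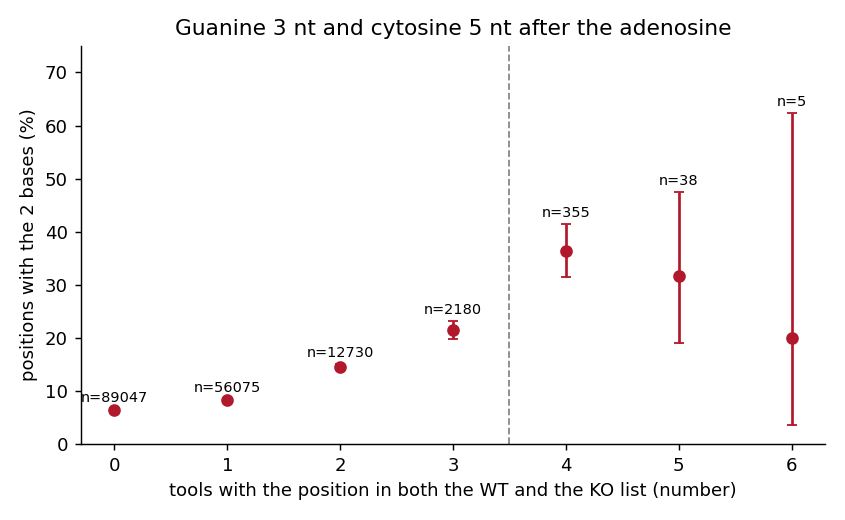
Share of positions (y axis, percent, with 95% Wilson intervals) with guanine 3 nt and cytosine 5 nt after the adenosine, by the number of tools that list the position in both libraries (x axis). The dashed line marks the threshold for repeated sites, between 21.5% at 3 tools and 36.3% at 4, and n is the number of positions.

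The share with the pair of bases differed between 5-mers. GGACAGNC was read at 86 of the 168 GGACA sites among the repeated sites (51.2%, 43.7% to 58.6%), at 161 of 682 GGACA positions repeated by 3 tools (23.6%), at 2541 of all 22646 GGACA positions (11.2%) and at 3 of 310 WT-supported GGACA sites (0.968%, 0.330% to 2.81%). Other choices of tools and threshold changed how many GGACA sites there were more than the share of them that read GGACAGNC. This share was 9 of 24 GGACA sites without MINES (37.5%, 21.2% to 57.3%) and 247 of 850 with at least 3 tools (29.1%, 26.1% to 32.2%). With shared inputs as 1 vote and at least 3 of 4 votes it was 25 of 49 (51%, 37.5% to 64.4%). As a share of all sites, GGACAGNC went from 21.6% to 5.77% without MINES. It went to 6.76% with shared inputs as 1 vote and at least 3 of 4 votes, which changed votes and threshold together. MINES lists few other 5-mers, and of the 119 sites that it did not repeat 7 were GGACA, of which 2 read GGACAGNC. Seen from the other side, 86 of the 2541 listed GGACAGNC positions were repeated sites (3.38%, 2.75% to 4.16%), against 82 of the other 20105 GGACA positions (0.408%, 0.329% to 0.506%). For GGACT the same shares were 32 of 1593 (2.01%) and 61 of 16088 (0.379%), and for GAACA 7 of 1115 (0.628%) and 4 of 8344 (0.0479%). For GGACC they were 1 of 448 (0.223%, 0.0394% to 1.25%) and 41 of 12223 (0.335%), too few sites to show a gap of either sign. G, with or without the C, followed GGACC at 13 of 42 repeated sites (31%, 19.1% to 46%), against 13.2% of all listed GGACC positions. The single most frequent run of 8 bases from the second base before the adenosine was GGACAGCC, at 55 repeated sites in 55 genes and 997 listed positions, and at 0 WT-supported sites. GGACAGTC followed with 22 repeated sites in 22 genes, 460 listed positions and 1 WT-supported site. In coding sequence, the adenosine of GGACAGNC took the first place of the codon at 13, the middle place at 12 and the last place at 15 of 40 repeated sites. These are shares of 32.5%, 30% and 37.5%. Over all 1404 listed coding GGACAGNC positions they were 23.6%, 44.6% and 31.8%, each inside the interval of the repeated sites.

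The pair was then counted in the whole lists of single tools. These lists include the repeated sites, so the count is not separate from the one above. Of the 486 GGACA positions that m6Anet listed in both libraries, 133 were repeated sites, and 83 of these read GGACAGNC. Among the GGACA positions that m6Anet listed in both libraries, 38.1% of 486 read GGACAGNC (33.9% to 42.5%), against 7.99% of the 2452 it listed in WT only. The same shares were 25.5% and 12.8% for MINES, 19.9% and 10.7% for Epinano and 16.5% and 8% for Tombo. They were 6.59% and 5.99% for Nanom6A and 5.56% and 5.48% for ELIGOS, and 2.31% and 5.87% for xPore, with overlapping intervals for each of these 3 tools. Positions listed in KO only held GGACAGNC more often than those listed in WT only for m6Anet (21.6%, 18.2% to 25.5%), MINES (16.9%), Epinano (15.9%) and Tombo (11.5%). For Epinano the intervals of KO only and both overlapped, and for the other 3 KO only lay below both. Among the repeated sites, both bases followed the motif at 132 of the 283 that m6Anet repeated (46.6%) and at 9 of the 92 that ELIGOS repeated (9.78%). Sites repeated by current-based tools alone held the pair in 88 of 177 cases (49.7%, 42.4% to 57%), and sites that ELIGOS or Epinano also repeated in 54 of 221 (24.4%, 19.2% to 30.5%). These groups differed in their 5-mers too. GGACA made up 47% of the sites that m6Anet repeated and 19.6% of those that ELIGOS repeated. It made up 64.4% of the sites of current-based tools alone and 24.4% of the others. Within GGACA, GGACAGNC was read at 65 of 114 and at 21 of 54 sites of the last 2 groups.

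With all 7 tools, GGACA was the most frequent 5-mer of the repeated sites, but GGACT led at 25% against 15.4% when MINES was left out. GGACT also led, at 22.4% against 13.2%, with shared inputs as 1 vote and at least 3 of 4 votes. GGACA stood at 168 of the repeated sites (42.2%, 37.5% to 47.1%), against 14.1% of all listed positions and 17.5% of the WT-supported sites. GGACT, the 5-mer read most often at m6A sites in mammals, stood at 93 (23.4%, 19.5% to 27.8%), against 11% of all listed positions and 41.2% of the WT-supported sites. GGACC stood at 42 (10.6%) and AGACT at 25 (6.28%), the latter against 21.4% of the WT-supported sites. AGACA stood at 15. GAACA stood at 11, as did GAACC and likewise GAACT. There were 7 sites with AAACA, 5 with AAACC, 5 with AGACC and 4 with AAACT. The remaining site, in the 5′ UTR of Tmem50a, reads GGACG on the genome, but its motif runs over the end of an exon. Of the 279 sites that MINES repeated, 278 had 1 of its 4 sequences. At the 119 sites that MINES did not repeat, GGACT made up 23.5% (16.8% to 31.9%) and GGACA 5.88% (2.88% to 11.6%). The interval of GGACT there spans its share over all repeated sites, and that of GGACA does not.

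The 398 sites were not carried equally by the 7 tools. Tombo repeated 391 of them (98.2%), Nanom6A 364 (91.5%), m6Anet 283 (71.1%), MINES 279 (70.1%), Epinano 179 (45.0%), ELIGOS 92 (23.1%) and xPore 52 (13.1%). The largest single combination was Tombo, MINES, Nanom6A and m6Anet with no other tool, at 151 sites (37.9%), followed by Tombo, Nanom6A, m6Anet and Epinano at 51 (12.8%). Neither error-based tool repeated 177 of the sites, and both repeated 50. Set against all positions that a tool listed in both libraries, the repeated sites were 13.4% of the 685 of ELIGOS, 5.17% of the 5396 of MINES and 0.870% of the 44933 of Tombo. The WT lists were longer than the KO lists for every tool. Among sites that a tool listed in 1 library alone, Epinano had 67 in WT and 3 in KO (95.7% in WT, 88.1% to 98.5%, against 82.8% over all positions it listed in 1 library), and ELIGOS 63 and 1 (98.4%, 91.7% to 99.7%, against 86%). The share was 84.6% for xPore (70.3% to 92.8%, against 79.3%) and 85.2% for m6Anet (67.5% to 94.1%, against 73.5%), intervals that span the share over all positions. At 253 sites every tool of the 7 that listed the position in WT listed it in KO as well. At 145 sites at least 1 further tool listed it in WT alone, and at 18 at least 1 further tool listed it in KO alone. The rule fixed a part of this pattern, and the counts are a description of it.

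**Figure D3:**
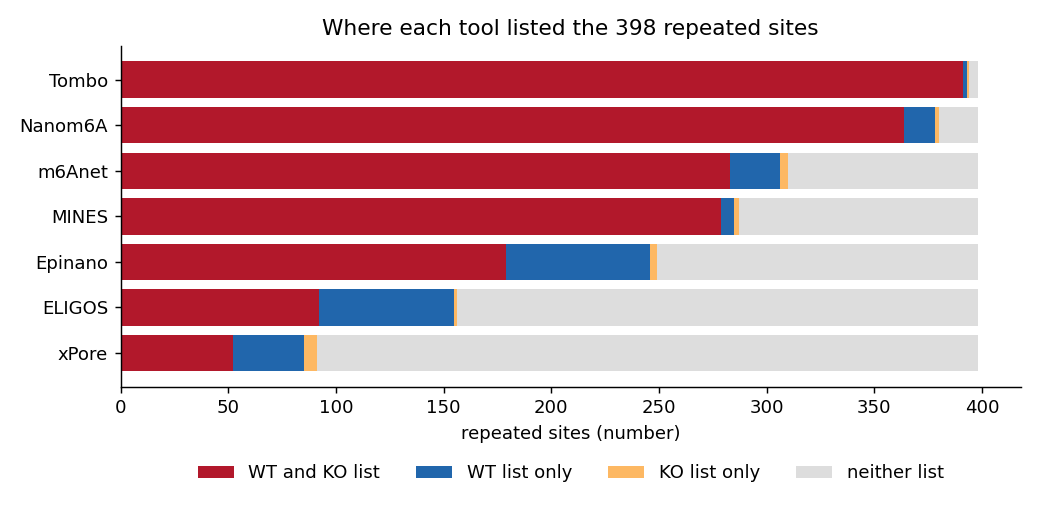
Number of the 398 repeated sites (x axis) that each tool (y axis) listed in both libraries, in WT only, in KO only or in neither. Tombo holds 391 in both libraries and xPore 52, and the WT-only part is widest for Epinano (67) and ELIGOS (63).

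Just inside the threshold stood 355 positions repeated by 4 tools, with 38 at 5 and 5 at 6, and no position was repeated by all 7. Just outside stood the 2180 positions repeated by 3. GGACT made up 23.1% of the 355 and 23.4% of the 2180, GGACA 42.5% and 31.3%, and positions in a comparison list of WT with KO 11.8% and 10.9%.

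On the transcript, 392 of the 398 sites lay on a coding transcript: 210 in the 3′ UTR (53.6%, 48.6% to 58.4%), 172 in the coding sequence (43.9%, 39.0% to 48.8%) and 10 in the 5′ UTR (2.55%). A further 5 lay on non-coding transcripts, and 1, a GGACC at 78493343 on the plus strand of chromosome 17, was not placed on any. The coding share stood between that of all listed positions (56.4%) and that of the WT-supported sites (31.3%), 12.6 points above the latter (7.25 to 17.9). No more than 200 nt from the stop codon, counted from its first base, lay 132 repeated sites (33.7%, 29.2% to 38.5%), against 46.9% of the WT-supported sites, a difference of -13.3 points (-18.3 to -7.90), and 21% of all listed positions. The last exon held 62.2% of the repeated sites, 86.6% of the WT-supported sites and 51.2% of all listed positions. Per 100 nt, both sets were highest in the first 100 nt from the stop codon, as were all listed positions. There the repeated sites were at 15.1%, the WT-supported sites at 18.8% and all listed positions at 5.94%. In the next 100 nt the shares were 6.89%, 14.9% and 4.59%. Between 200 and 500 nt after the stop codon the repeated sites stood at 5.61%, 6.12% and 5.61% per 100 nt, and the WT-supported sites at 9.28%, 6.38% and 3.82%. At Plekhj1, Dnpep, Ndufb2 and Atp6v1e1 a GGACT ran into the stop codon itself, with the adenosine 2 nt before its first base.

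The repeated sites lay closer to exon junctions than the WT-supported sites. In coding sequence, 132 of 171 repeated sites on spliced transcripts lay less than 100 nt from a junction (77.2%, 70.3% to 82.8%), against 84 of 531 WT-supported sites (15.8%, 13% to 19.2%), a difference of 61.4 points (53.8 to 67.7). All listed positions in coding sequence were at 76.8%. In last exons the shares were 26 of 243 repeated sites (10.7%), 61 of 1489 WT-supported sites (4.10%) and 10.3% of all positions. Less than 10 nt from a junction lay 22 of 393 repeated sites (5.60%) and 2 of 1725 WT-supported sites (0.116%), with 7.01% of all listed positions, so that it was the WT-supported sites that stood apart. The exons that held the sites had a median length of 535 nt for the repeated sites (quartiles 194 and 1181), 620 nt for all listed positions (157 and 1867) and 1336 nt for the WT-supported sites (756 and 2237). The median distance to the 3′ end of the transcript was 740 nt for the repeated, 1053 nt for the WT-supported and 1362 nt for all listed positions. In the last 100 nt lay 8.16% of the repeated sites (5.84% to 11.3%), 1.82% of the WT-supported sites and 3.61% of all positions. The adenosine took the middle place of the codon at 74 of the 172 coding sites, the last at 58 and the first at 40. The middle place made up 43% of the repeated sites (35.9% to 50.5%), 45.7% of all listed coding positions and 57.6% of the WT-supported ones.

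**Figure D4:**
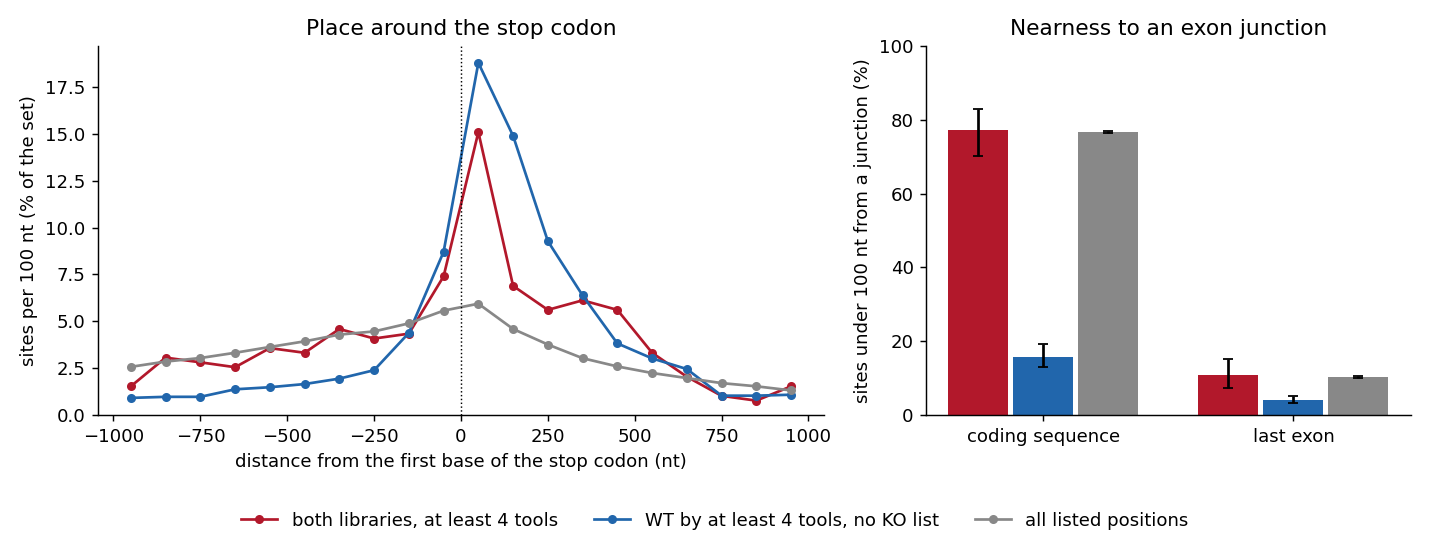
Left, share of each set (y axis, percent per 100 nt) by distance on the transcript from where the stop codon starts (x axis, nt, negative in coding sequence). Right, share of sites less than 100 nt from an exon junction (y axis, percent, with 95% Wilson intervals) in coding sequence and in last exons, where repeated sites are at 77.2% and 10.7%, WT-supported sites at 15.8% and 4.10% and all listed positions at 76.8% and 10.3%.

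Repeats and runs of one base were looked for around each site. Soft-masked repeats of the genome, which are mostly copies of mobile elements, held 39 repeated sites (9.80%, 7.25% to 13.1%), 7.91% of all listed positions and 4.12% of the WT-supported sites. In 3′ UTRs they held 33 of 210 repeated sites (15.7%, 11.4% to 21.2%) and 61 of 1186 WT-supported sites (5.14%), a difference of 10.6 points (6.05 to 16.2), but all listed 3′ UTR positions were at 12.2%, inside the interval of the repeated sites. Among GGACAGNC in 3′ UTRs they held 15 of 45 repeated sites (33.3%, 21.4% to 47.9%) and 20.7% of all listed positions. Outside the masked repeats GGACAGNC was still read at 71 of 359 repeated sites (19.8%, 16.0% to 24.2%) and at 0.177% of the WT-supported sites. The 31 bases around 68 of the 398 sites (17.1%, 13.7% to 21.1%) occurred again elsewhere in the genome, against 18% of the positions repeated by 3 tools and 9.42% of the WT-supported sites, and reads of such sites may come from a copy. Of all repeated sites, 11 had 10 or more further copies, up to 6418 in Spc24. Among the sites that 5 or 6 tools repeated or all 3 comparison lists held, Noct had 21 further copies, Rpl35a 12, Ldha 5, Dynlt1b 4, Ppp1cc, Gstp1, Set at 30062248 and the site on no transcript 2 each, and Tmed10, Pdhb, Dkc1 and Set at 30072382 1 each. Of the sequences printed above, those of Dkc1 and 0610010K14Rik lay in soft-masked repeats. A run of 5 or more of the same base was found no more than 10 bp from 34 repeated sites (8.54%, 6.18% to 11.7%), from 7.03% of all listed positions and from 5.64% of the WT-supported sites. Such runs were near 21 of the 179 sites that Epinano repeated (11.7%) and 14 of the 283 that m6Anet repeated (4.95%), with intervals of 7.80% to 17.3% and 2.97% to 8.13%. Another RRACH lay within 10 nt of 76 sites (19.1%), against 19.7% of all listed positions.

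The repeated sites were spread thinly over genes: 325 genes had 1, 33 had 2 and Set and Alg13 had 3. In Set, a histone chaperone and inhibitor of protein phosphatase 2A, they were a GGACA at 30062248 and a GAACA at 30068969 in coding sequence and the 3′ UTR site shown above on chromosome 2, each with 1 to 7 further genome copies of its 31 bases. In Alg13, an enzyme subunit of N-glycosylation on the X chromosome, a GGACA and a GGACC lay 7 bp apart at 144355594 and 144355601, with an AAACA at 144374202. The listed transcript places all of them in the 3′ UTR, the GGACA and the GGACC in exon 22 of 27. Neighbouring sites can share the same current or error signal, so they are not independent. Of the 398 sites, 9 lay where exons of several genes overlap in the same orientation, and their gene is uncertain.

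By function, the genes were sorted into 19 lists by their symbols, and 161 of the sites fell into at least 1 list and 236 into none. Genes of mitochondria held 23 sites (5.78%, 3.88% to 8.52%, against 2.07% of all listed positions), ribosomal proteins 14 (3.52%, 2.11% to 5.82%, against 0.971%), chaperones 12 (3.02%, against 1.45%), translation factors 9 (2.26%, against 1.07%) and glycolysis 6 (1.51%, 0.693% to 3.25%, against 0.307%). Pluripotency factors held 5 sites (1.26%, against 0.430%) and histones 2 (0.503%, against 0.128%). Zinc finger genes held 4 (1.01%, 0.392% to 2.56%), against 2.71% of all listed positions. Ubiquitin and SUMO genes held 18 (4.52%, against 4.42%), splicing and RNA binding 12 and chromatin regulators 12 (3.02% each, against 2.5% each), vesicle traffic 11 (2.76%, against 2.67%), kinases and cyclins 10 (2.51%, against 2.16%), replication and repair 8 (2.01%, against 1.84%), cytoskeleton and adhesion 7 (1.76%, against 1.51%) and phosphatases 5 (1.26%, against 1.12%). Solute carriers held 4 (1.01%, against 1.41%), aminoacyl-tRNA synthetases 2 (0.503%, against 0.535%) and m6A machinery 1 (0.251%, against 0.348%). The lists of positions give no coverage, so the part of transcript abundance in these shares was not tested.

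Of the sites that 6 tools repeated, 2 were in catalytic subunits of serine/threonine phosphatases. Ppp1cc (ENSMUSG00000004455), a catalytic subunit of protein phosphatase 1, held a GGACT at 122169006 in coding exon 3, 695 nt before the stop codon. Every tool but ELIGOS repeated it, and ELIGOS had it in WT alone. Ppp4c, the catalytic subunit of protein phosphatase 4, held a GGACT at 126786055 in the 3′ UTR, 109 nt after the stop codon. All 6 tools other than xPore repeated it, and xPore added it in KO only, so that it stood in 6 WT and 7 KO lists. The same 6 tools, and no other of the 7 in either library, listed the remaining sites. Senp3, a protease that removes SUMO, held a GGACC at 69680818 in coding exon 2, and Tmed10, a cargo receptor between the endoplasmic reticulum and the Golgi, a GGACT at 85343491 in coding sequence, 61 nt before the stop codon. Tgif1, a homeodomain repressor of TGF-beta signalling, held a GGACA at 70846350 in coding exon 2. At Ppp4c, Senp3, Tmed10 and Tgif1, and at 30062248 in Set, every tool that listed the site in WT listed it again in KO.

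The sites that 5 tools repeated were spread over many functions. In metabolism they were in Ldha, which makes lactate (GAACC, coding sequence), Tkt, transketolase of the pentose phosphate pathway (GAACT, 3′ UTR), Pmm1, a phosphomannomutase (GGACA, coding sequence), Pdhb, a subunit of pyruvate dehydrogenase (AGACT, 3′ UTR), Asah1, acid ceramidase (GGACT, coding sequence), and Alpl, alkaline phosphatase, a classic stain of stem cells (GGACA, 3′ UTR). In mitochondria and ion pumps they were in Ndufa12 of respiratory complex I (GGACC, 3′ UTR), Atp5a1 of the ATP synthase (GGACA, 3′ UTR), Hspa9, the mitochondrial heat shock protein 70 (GGACA, coding sequence), and Atp6v0d1 of the vacuolar proton pump (GGACA, coding sequence). In translation they were in Rplp0 and Rpl35a, proteins of the large ribosomal subunit (GGACC and GGACA, both coding). Noct, a circadian phosphatase, held a GGACC that the listed transcript places in the 5′ UTR, in a first exon of 7869 nt.

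In the nucleus, 5 tools repeated sites in H2afz, the histone variant H2A.Z (GGACT, 3′ UTR), Polr2h, a subunit shared by the RNA polymerases (AAACC, 3′ UTR), Thoc7 of the mRNA export complex (GGACT, 3′ UTR), Dkc1, the pseudouridine synthase dyskerin (GGACA, 3′ UTR), Zfp982, a zinc finger gene (GGACA, coding sequence), and Set (GGACA, coding sequence and 3′ UTR). In folding and protein turnover they were in Tcp1, a subunit of the cytosolic chaperonin (GGACC, coding sequence), and Ubqln4, a ubiquilin (GGACA, 3′ UTR). In the cytoskeleton and at membranes they were in Iqgap1, a scaffold of the cell cortex (GGACT, 3′ UTR), Add1, adducin (GGACA, 3′ UTR), Slc12a7, a potassium-chloride cotransporter (GGACT, 3′ UTR), Mpzl1 (GGACA, 3′ UTR), Gipc1 (GGACC, 3′ UTR) and Calu, calumenin of the endoplasmic reticulum (AGACT, 3′ UTR). Caprin1, an RNA-binding protein of stress granules, held an AGACT in coding exon 11. Further ones were in Pebp1, an inhibitor of Raf kinase (GGACT, 5′ UTR), Nubp2, an iron-sulphur cluster assembly factor (GGACC, 3′ UTR), Abcf2 and Tmem234 (GGACA, 3′ UTR), Plekhj1 (GGACT, at the stop codon), 0610010K14Rik (GGACT, 3′ UTR), Gm15501 (GAACT, non-coding) and the site of chromosome 17 placed on no transcript.

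Other sites named by their function were repeated by 4 tools. The pluripotency factor Nanog held 2, a GAACT at 122713524 in coding sequence, 29 nt before the stop codon, which Nanom6A, m6Anet, Epinano and xPore repeated, and a GGACC at 122713962 in the 3′ UTR, which Tombo, Nanom6A, ELIGOS and Epinano repeated. The growth factor gene Fgf4 held a GGACC 542 nt into its 3′ UTR, listed by 6 tools in WT and 4 in KO. The replication helicase genes Mcm3 and Mcm6 held sites 160 nt and 155 nt after the stop codon, and Orc2, of the origin recognition complex, a coding GGACA. Hnrnpa2b1, an RNA-binding protein proposed as an indirect m6A reader, held a GGACA 42 nt after the stop codon, the only repeated site in the list of m6A machinery. Dhx15, a splicing helicase, held a coding GGACA site. Among chromatin genes, the H3K4 demethylase Kdm5b held a coding AGACA, the deacetylase Hdac1 a GGACC in its 3′ UTR and the H4K20 methyltransferase Kmt5a a coding GGACC. H1f0, a linker histone, held a GGACA 18 nt after the stop codon. In adhesion, Cdh1, E-cadherin, and Itgb1, integrin beta 1, held a GGACA and a GGACT in their 3′ UTRs. Of the sites in this paragraph, both in Nanog and those in Dhx15, H1f0 and Cdh1 lay in soft-masked repeats. Their 31 bases had 2 further genome copies at Hdac1, and 1 each at Kmt5a and at the 3′ UTR site of Nanog.

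The lists of Nanocompore, DiffErr and DRUMMER hold positions called from the comparison of WT with KO. They come from the same reads as the 14 lists behind the rule, so their overlap with the repeated sites is a description. Of the 398 sites, 45 stood in at least 1 of the 3 lists (11.3%, 8.56% to 14.8%), where 1.97% of all listed positions did. Nanocompore listed 25 (6.28%; all positions 1.31%), DiffErr 28 (7.04%; all positions 1.09%) and DRUMMER 25 (6.28%; all positions 0.790%), and 5 stood in all 3 (1.26%; all positions 0.324%). The WT-supported sites stood in at least 1 list in 30.2% (28.1% to 32.4%), 18.9 points more than the repeated sites (14.8 to 22.4). DiffErr and DRUMMER shared 21 of the repeated sites, and 13 were in the Nanocompore list alone.

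Whether a repeated site was in a comparison list went along with the number of tools that listed it in WT. Of the 223 listed by 4 tools in WT, 7 were in a comparison list (3.14%, 1.53% to 6.34%), of the 110 listed by 5 tools 14 (12.7%), of the 49 listed by 6 tools 11 (22.4%) and of the 16 listed by all 7 tools 13 (81.2%, 57% to 93.4%). Positions with the same number of WT tools that 0 of the 7 repeated in KO were in a comparison list in 19.6%, 33.1%, 48.1% and 53.8%. At 4 to 6 WT tools the repeated sites lay below positions with equal WT support, and at 7 the intervals overlapped. The rule fixed a part of this pattern. A repeated site with 4 WT tools must have all 4 in KO too, while 13 of the 16 with 7 WT tools stood in 4 KO lists. The trend and the gap are therefore a description. The WT and KO lists of xPore are not separate single-library calls like those of the other tools, and how they were drawn is not given in the sources used here. Of the 33 repeated sites that xPore listed in WT only, 15 were in a comparison list, against 10 of the 52 that xPore repeated. By sequence, a comparison list held 22 of the 93 GGACT sites (23.7%, against 6.07% of all listed GGACT positions) and 15 of the 168 GGACA sites (8.93%, against 2.73%). It held 4 of the 25 AGACT sites (16%, against 4.39%) and 2 of the 42 GGACC sites (4.76%, against 2.7%). Among the WT-supported sites the shares were 27.4% for GGACT (24.3% to 30.7%), whose interval overlaps that of the repeated GGACT sites (16.2% to 33.2%), and 30% for GGACA, 33.5% for AGACT and 32.2% for GGACC. Of the 86 GGACAGNC sites, 9 were (10.5%, 5.6% to 18.7%, against 1.06% of all listed GGACAGNC positions). Of the 92 sites that ELIGOS repeated, 3 were (3.26%, 1.12% to 9.15%).

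**Figure D5:**
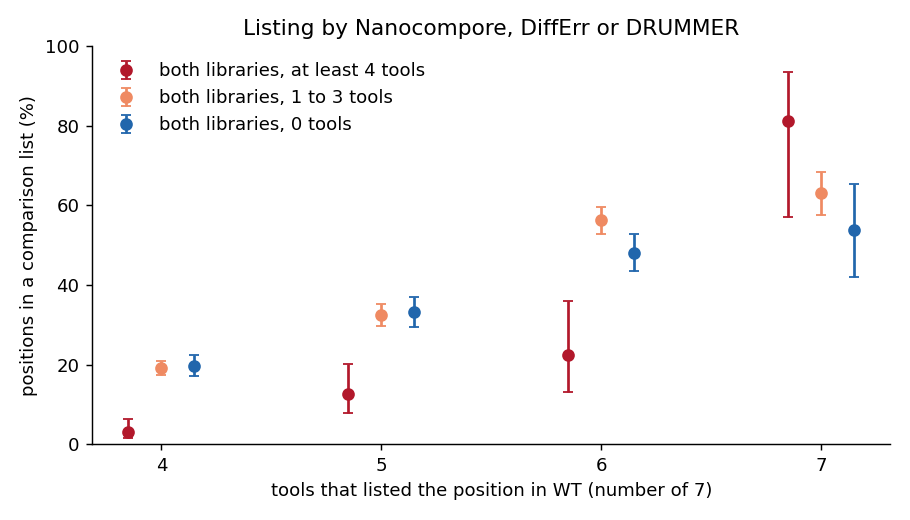
Share of positions (y axis, percent, with 95% Wilson intervals) in a comparison list of Nanocompore, DiffErr or DRUMMER, by the number of tools that listed the position in WT (x axis). Repeated sites lie at 3.14%, 12.7% and 22.4% for 4, 5 and 6 WT tools, below positions that fewer tools repeated, and at 81.2% of 16 sites for 7 tools.

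The 5 repeated sites in all 3 comparison lists were each listed by 4 tools in KO and by 5 or 7 in WT, and 4 of them read GGACT. They are printed with the pair of bases again in capitals where present.
Mlf2, chr6:124935996-124936024, plus strand, 3′ UTR: tgtggagaaagtGGACTagttccaattct
Mfge8, chr7:79134048-79134076, minus strand, 3′ UTR: gggcttgactcaGGACTgaagggagcccc
Slc16a3, chr11:120958162-120958190, plus strand, 3′ UTR: gaagaggtccagAGACTGgCaacgctcat
Dynlt1b, chr17:6435941-6435969, plus strand, coding sequence: gtcagtaccttcGGACTGtCcatctgacc
Gstp1, chr19:4035455-4035483, minus strand, 3′ UTR: gcaaacagtagtGGACTgaagagacaaga
Mfge8, a secreted protein that tags dying cells for uptake, and Slc16a3, the lactate exporter MCT4, were listed by all 7 tools in WT. Mlf2, Dynlt1b, a dynein light chain, and Gstp1, a glutathione S-transferase, were listed by 5. The site in Dynlt1b lay 10 nt before the stop codon and that in Gstp1 6 nt after it. Among the sites that 5 or 6 tools repeated, 3 were in a comparison list: Ppp1cc and Plekhj1, both with 7 WT tools, in those of DiffErr and DRUMMER, and Rpl35a in that of Nanocompore.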

How the data were processed

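The authors basecalled the DRS reads with Guppy, aligned them with Minimap2 to a GENCODE mouse transcriptome of GRCm38 (mm10), ran each tool and deposited lists of positions converted to the genome. The deposited values are positions only (BED start and end), with no score, rate or coverage. No list states its cut-off, and variants of strain 129 against the reference were not analysed here.

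A site was a unique chromosome, start and strand. The 5-mer and neighbouring bases were read from the GRCm38.p6 genome on the listed strand, so near a junction they include intron bases. Transcripts came from GENCODE M21, in which 16348 of the 16356 transcript names of the lists were found. Copies of 31 bases were counted on both strands of the primary assembly, from spliced sequence near junctions, and soft-masking was that of the RefSeq genome file. Motifs were read on the listed strand only.

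Groups came from the sample labels. No column of other samples was used. Shares have 95% Wilson intervals and differences Newcombe intervals. The counting was tested on simulated data. Members and gene lists were chosen with earlier results of these data known. Sites were named if 5 or more tools repeated them, if they were in all 3 comparison lists, in the genes with most sites, among the first 5 in which every WT tool repeated, or among up to 3 per gene list by number of tools and genomic order, of which some are given here. Sequences are shown for a part of these. Some named sites are not reported here. Alternatives matched positions within 5 bp, kept RRACH only, left out MINES, Tombo or xPore, or used thresholds of 3 or 5 tools. Others counted tools with a shared input as 1 vote with at least 3 of 4 votes required, or changed windows, transcripts and flanks. Python 3.11.15, numpy 2.4.6, pandas 2.3.3, scipy 1.17.1, pysam 0.24.0 and matplotlib 3.10.9 were used.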

Additional observations from a re-analysis of the deposited data

How the results depend on the processing

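No paired analysis was possible because each condition had 1 library and no test was run. Of 73 values under other settings, 51 stayed within 1.5 times the count or within the interval of the share, and 22 moved. The number of sites and genes followed the rule by construction: 156 sites in 147 genes without MINES, 50 in 48 without Tombo, 2578 in 1664 with at least 3 tools and 43 in 41 with at least 5, where the number without xPore was 361 sites and that with positions matched within 5 bp 411. With tools that share an input counted as 1 vote and at least 3 of 4 votes required, there were 370 sites, of which 174 were among the 398. This setting changed votes and threshold together. Under it the share with the G and C after the motif went from 35.7% to 20.5% and that of GGACA from 42.2% to 13.2%. Without MINES the pair stood at 24.4% and GGACA at 15.4% of the sites. The share in a comparison list was 8.33% without MINES, 6% without Tombo and 6.98% with at least 5 tools. The coding share was 51.6% with at least 3 tools and 39.0% with at least 5. The share near the stop codon was 43.8% without Tombo, 39.0% with at least 5 tools, 22.4% in a window of 100 nt and 54.1% in one of 400 nt. Homopolymers were near 2% without Tombo, 2.33% with at least 5 tools, 24.1% when 4 equal bases sufficed and 2.01% within 5 bp, and another RRACH lay within 5 nt of 4.02%. GGACT stayed between 21.9% and 25.6%. Without coverage, a position absent from KO cannot be told apart from one with too few reads there.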
